A study of Mus musculus with 6 samples.

Results

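The cytochrome P450 4 (CYP4) fatty acid hydroxylases of the mouse liver were followed in 6 livers, 3 from gSpns1-cKO mice and 3 from controls. The genes were the 10 rows of the deposited gene table whose symbol was *Cyp4a10*, *Cyp4a12a*, *Cyp4a12b*, *Cyp4a14*, *Cyp4a31*, *Cyp4a32*, *Cyp4f13*, *Cyp4f14*, *Cyp4f15* or *Cyp4v3*, out of 54532 rows in all. All 10 passed the filter on low counts, which kept 15449 genes for testing. CYP4 enzymes sit in the endoplasmic reticulum and add a hydroxyl group to the last carbon of a fatty acid, the first step of ω-oxidation. Alcohol and aldehyde dehydrogenases then complete the change to a dicarboxylic acid, which peroxisomes shorten. In the liver *Cyp4a10* and *Cyp4a14* are textbook targets of the fatty acid-sensing nuclear receptor PPARα. The CYP4F enzymes are known for clearing leukotriene B4 and other eicosanoids, and the *Cyp4a12* genes are known for higher expression in males.

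The study asked what follows the loss of *Spns1*, which encodes a lysosomal transporter of lysolipids. According to the methods, gSpns1-cKO mice on a C57BL/6 background were homozygous for a floxed *Spns1* allele and carried the tamoxifen-activated Rosa26Cre-ERT2, and tamoxifen was injected intraperitoneally in the postnatal period to delete the floxed exon in the whole body. The methods name floxed littermates as the controls of these mice, whereas the labels call the control livers wild type, and neither source gives the sex or age of the sequenced mice or states whether the controls received tamoxifen. Poly-A RNA of whole liver was sequenced, 1 library per mouse, so a lower level can come from fewer hepatocytes or from less RNA per hepatocyte, and these cannot be told apart.

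The libraries held between 30350002 and 35295611 counts. The members took between 0.137% and 0.139% of the counts in control libraries and between 0.0781% and 0.0953% in gSpns1-cKO libraries. *Spns1* itself fell by 0.87 on the log2 scale (SE 0.25, adjusted p = 0.0300, edgeR). It did not pass with library size only (-0.43), upper-quartile (-0.74) or hepatocyte-list scaling (-0.29), at a threshold of 0.01, or without control 2 (-0.68), gSpns1-cKO 1 (-0.74) or gSpns1-cKO 3 (-0.74), with adjusted p values of up to 0.270 (edgeR). Xist had between 0 and 5 counts and the Y-linked genes between 3384 and 6067 counts in every library. By these counts every library of both groups, gSpns1-cKO 1 included, came from a male mouse, although the sources do not state the sex. Among the 4 X-inactivation and Y-linked genes tested, *Kdm5d* rose by 0.47 on the log2 scale (adjusted p = 0.0149, edgeR), and *Ddx3y*, *Eif2s3y* and *Uty* did not pass, whereas all 4 passed as higher when libraries were scaled by size only. Library gSpns1-cKO 1 stood apart from the other gSpns1-cKO libraries in the *Cyp4a12* genes and in some, not all, further genes with sex-biased expression. The members' values that rest on it are therefore also given without it.

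The 6 *Cyp4a* members form a cluster of 323 kb on chromosome 4 (GRCm38, 115299046 to 115621602), the 3 *Cyp4f* members lie within 262 kb of chromosome 17 (32685627 to 32947402), and *Cyp4v3* stands alone on chromosome 8 (45304944 to 45333216). Several *Cyp4a* members are recent copies of each other, which matters for the counts because a read from a stretch that copies share cannot be assigned to 1 of them. In the GENCODE M21 transcripts, the coding sequences of *Cyp4a12a* and *Cyp4a12b* were 98.5% identical, with 23 of 1527 bases differing. The *Cyp4a10* coding sequence was 97.2% identical to that of *Cyp4a32* and 96.6% identical to that of *Cyp4a31*, but 75.1% identical to that of *Cyp4a14*. Of all stretches of 100 bases in the *Cyp4a12a* transcript, 35.8% occurred unchanged in a transcript of another gene, as did 36.2% of those of *Cyp4a12b*, 20.1% of *Cyp4a32*, 12.7% of *Cyp4a10* and 8.22% of *Cyp4a31*. The share was 0 for *Cyp4a14* and the 3 *Cyp4f* members. For *Cyp4v3* it was 5.77%, shared with *Gm45753*, a gene model that overlaps it on the same strand and had 0 or 1 count in each library.

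The first 120 coding bases show how close these copies are. They were the same in *Cyp4a12a* (chr4:115299128-115299247, GRCm38, plus strand) and *Cyp4a12b* (chr4:115411683-115411802, plus strand), and are given once, from the start codon.
Cyp4a12a and Cyp4a12b: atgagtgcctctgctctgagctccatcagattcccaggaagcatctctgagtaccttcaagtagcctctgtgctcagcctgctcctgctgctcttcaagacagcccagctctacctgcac
Within a single exon, the 120 coding bases at which this pair differed most were bases 644 to 763 of the coding sequence, where 8 bases differed. They lie at chr4:115326642-115326761 for *Cyp4a12a* and chr4:115432895-115433014 for *Cyp4a12b*, and capitals mark the bases that differ between both genes.
Cyp4a12a: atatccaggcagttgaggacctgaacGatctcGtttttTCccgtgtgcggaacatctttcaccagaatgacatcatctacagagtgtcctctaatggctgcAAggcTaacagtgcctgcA
Cyp4a12b: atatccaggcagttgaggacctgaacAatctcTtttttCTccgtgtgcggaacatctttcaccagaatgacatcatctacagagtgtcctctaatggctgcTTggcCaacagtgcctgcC

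The same first 120 coding bases set *Cyp4a10* beside its copies. Capitals mark the bases that differ from *Cyp4a10*, which were 2 in *Cyp4a32*, 7 in *Cyp4a31* and 43 in *Cyp4a14*. The positions in GRCm38 are chr4:115518322-115518441 for *Cyp4a10*, chr4:115600975-115601094 for *Cyp4a32* and chr4:115563717-115563836 for *Cyp4a31*, all on the plus strand, and chr4:115495994-115496113 for *Cyp4a14*, on the minus strand.
Cyp4a10: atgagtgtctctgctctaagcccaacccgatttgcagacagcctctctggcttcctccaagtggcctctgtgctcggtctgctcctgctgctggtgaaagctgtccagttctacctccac
Cyp4a32: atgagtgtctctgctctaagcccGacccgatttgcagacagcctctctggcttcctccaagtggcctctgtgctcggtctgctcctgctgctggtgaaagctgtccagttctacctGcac
Cyp4a31: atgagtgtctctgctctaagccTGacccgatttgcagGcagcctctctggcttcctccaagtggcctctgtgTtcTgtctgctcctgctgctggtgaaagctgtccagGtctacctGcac
Cyp4a14: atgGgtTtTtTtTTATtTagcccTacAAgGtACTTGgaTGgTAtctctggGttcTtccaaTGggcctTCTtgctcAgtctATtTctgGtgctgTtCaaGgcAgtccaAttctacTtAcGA
Values for *Cyp4a12a* and *Cyp4a12b*, and for *Cyp4a10*, *Cyp4a31* and *Cyp4a32*, are therefore uncertain one by one, and their sums are reported beside them.

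Of the 10 members, 5 fell in gSpns1-cKO livers and 5 did not pass the test (edgeR's quasi-likelihood test, Benjamini-Hochberg adjusted p under 0.05 over all genes tested). Across all genes tested, 20.5% were called lower, 21.3% higher and 41.8% in either direction. The members called lower were *Cyp4f14*, *Cyp4v3*, *Cyp4a32*, *Cyp4f13* and *Cyp4f15*, whose levels fell to between 0.250 and 0.586 of the control mean. All 3 gSpns1-cKO livers lay below all 3 control livers for 7 members, the 5 called ones and both *Cyp4a12* genes, against 26.9% of all genes tested. Groups that did not overlap were higher for 27.1% and in either direction for 54.1% of all genes. The median log2 fold change was -1.22 over the members and 0.014 over all genes tested. With the main settings, no member was called higher by edgeR or by limma-voom, and 1 member, *Cyp4a31*, was called higher by DESeq2. The same 1 member had an unadjusted p under 0.05 in the higher direction with edgeR. Under some other settings edgeR called it higher too, as with library size only (adjusted p = 0.0112) and hepatocyte-list scaling (adjusted p = 0.00356).

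**Figure D1:**
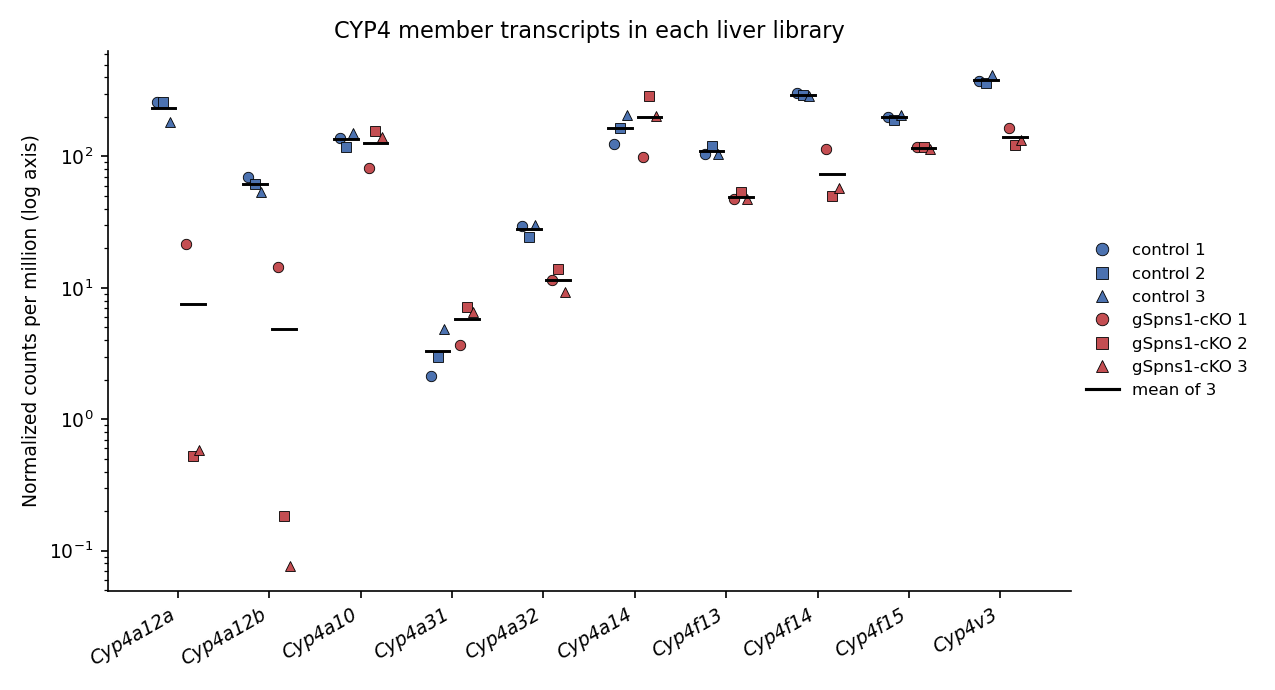
Level of each CYP4 member in every library, as CPM (counts scaled to the normalized library size) on a log axis, with control libraries in blue, gSpns1-cKO libraries in red, 1 symbol per library number and a bar at the mean of 3. The gSpns1-cKO points lie below all control points for 7 members and overlap them for Cyp4a10, Cyp4a31 and Cyp4a14, and for the Cyp4a12 genes the point of gSpns1-cKO 1 lies far above those of gSpns1-cKO 2 and 3.

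The deposited FPKM values scale counts by gene length and by a factor per library that was not the total of its counts. Per length, *Cyp4f14* was the highest member in control livers, at 121.5 ± 1.97 FPKM (SD, n = 3). *Cyp4v3* at 99.8 ± 7.57 and *Cyp4a12a* at 96.1 ± 17.9 followed, within their spread of each other. *Cyp4f15* stood at 86.3 ± 3.82, also within the spread of *Cyp4a12a*, and *Cyp4a10* and *Cyp4a14* at 63.7 ± 7.53 and 62.8 ± 16.2. *Cyp4f13* had 32.9 ± 2.86, *Cyp4a12b* 25.5 ± 3.15, *Cyp4a32* 18.1 ± 1.97 and *Cyp4a31* 1.32 ± 0.569 FPKM. In the means of gSpns1-cKO livers the order changed, though not alike in each library. In gSpns1-cKO 1, *Cyp4f15*, *Cyp4f14*, *Cyp4v3* and *Cyp4a10* (50.9, 46.8, 42.5 and 38.5 FPKM) lay above *Cyp4a14* at 37.7 FPKM. Over the 3 gSpns1-cKO livers, *Cyp4v3* stood at 36.1 ± 5.71 and *Cyp4f14* at 30.3 ± 14.4 FPKM. *Cyp4a14* stood at 75.0 ± 36.1, *Cyp4a10* at 59.2 ± 18.2 and *Cyp4f15* at 50.3 ± 0.605 FPKM, which lay within their spread of each other, while *Cyp4a12a* stood at 3.06 ± 4.91 and *Cyp4a12b* at 2.01 ± 3.38.

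The *Cyp4a12* pair encodes the mouse enzymes best known for making 20-HETE, a vasoactive eicosanoid, from arachidonic acid. For *Cyp4a12a* (ENSMUSG00000066071), 7275, 8058 and 4641 reads were counted in controls 1 to 3, against 770, 20 and 23 in gSpns1-cKO livers 1 to 3. Scaled to the TMM-normalized library size (CPM), these were 259, 262 and 183 CPM in the controls and 21.4, 0.521 and 0.585 CPM in gSpns1-cKO livers. The groups did not overlap, yet the gSpns1-cKO livers themselves spanned a 41.1-fold range. The control mean was 11.0 times the level of gSpns1-cKO 1, 450 times that of gSpns1-cKO 2 and 401 times that of gSpns1-cKO 3. With this spread the log2 fold change of -4.97 (SE 1.73) did not pass the test (adjusted p = 0.0873, edgeR), and the range of adjusted p over the alternatives ran from 7.56e-09 without gSpns1-cKO 1 to 0.174.

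*Cyp4a12b* (chromosome 4, 115411624 to 115439034) followed the same order. Its counts were 1948, 1907 and 1347 in controls and 516, 7 and 3 in gSpns1-cKO livers, which were 69.3, 61.9 and 53.2 CPM and 14.3, 0.182 and 0.0763 CPM. The count of gSpns1-cKO 3 was at the floor of 3 counts taken as the smallest signal. Its log2 fold change was -3.67 (SE 1.69, adjusted p = 0.161, edgeR).

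Summed over both copies, the *Cyp4a12* counts were 9223, 9965 and 5988 in control livers and 1286, 27 and 26 in gSpns1-cKO livers. The sum does not depend on how reads were split between the copies if each read was counted once, which the sources do not state. It was 296 ± 51.5 CPM in controls and 12.4 ± 20.2 CPM in gSpns1-cKO livers (SD, n = 3). Its log2 fold change was -4.59 (SE 1.87, adjusted p = 0.126, edgeR). Without gSpns1-cKO 1 it was -8.76 (adjusted p = 5.62e-09, edgeR). With all 6 libraries, DESeq2 gave -4.59 with an adjusted p of 0.010, and limma-voom gave -6.89 with an adjusted p of 0.00108. As a share of all counts on the 6 *Cyp4a* members, the pair held 52.9%, 51.1% and 37.6% in controls, and 15.4%, 0.15% and 0.183% in gSpns1-cKO livers.

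**Figure D2:**
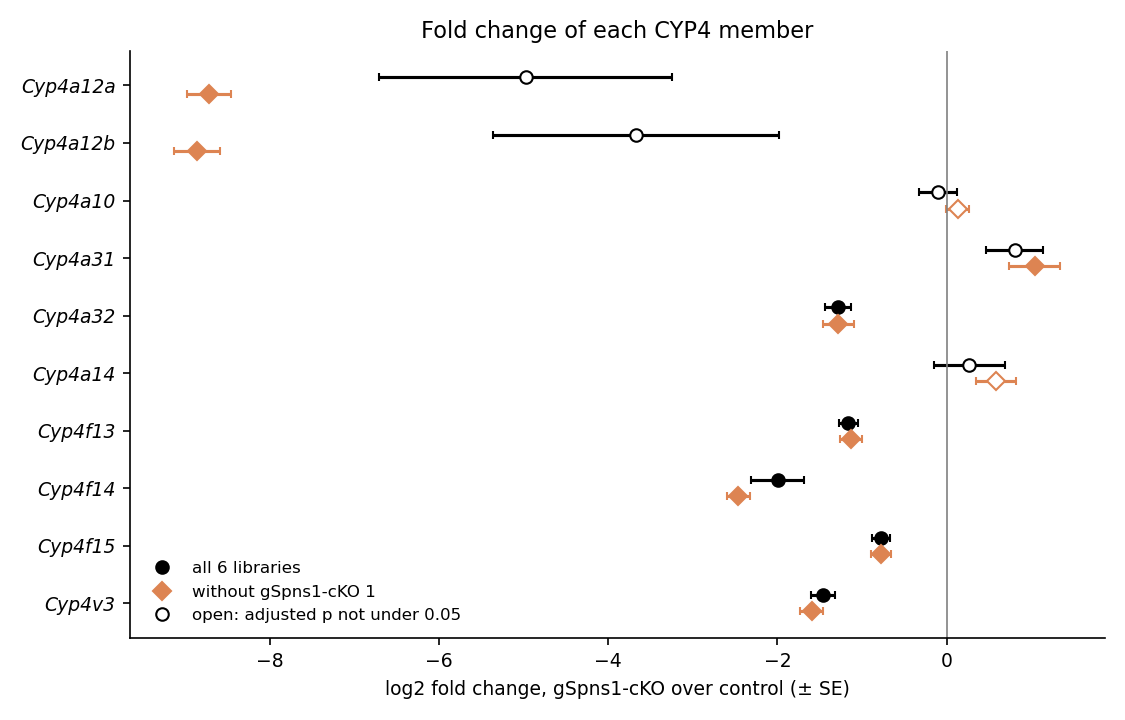
The log2 fold change of each CYP4 member, gSpns1-cKO over control, with its standard error, fitted with all 6 libraries (black circles) and without gSpns1-cKO 1 (orange diamonds), filled where the edgeR adjusted p was under 0.05. The Cyp4a12 genes moved from -4.97 and -3.67 to -8.72 and -8.86 without that library, Cyp4a10 changed sign from -0.10 to 0.13, and Cyp4f13 and Cyp4f15 hardly moved.

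Some genes with known sex-biased expression in mouse liver separated the same libraries, whereas others, given below, did not. *Cux2*, a transcription factor of female liver, had 0.676, 0.260 and 0.198 CPM in controls and 1.06, 39.4 and 35.1 CPM in gSpns1-cKO livers 1 to 3, so that gSpns1-cKO 1 stood near the controls (log2 fold change 6.04, adjusted p = 0.0557, edgeR, not passed). *Mup20*, a male-biased urinary protein, had between 3217 and 4169 CPM in controls and 585, 14.2 and 12.7 CPM in gSpns1-cKO livers (log2 fold change -4.22, adjusted p = 0.159, edgeR, not passed). Both genes thus had an intermediate or control-like level in the 1 library in which the *Cyp4a12* genes were still present. *Cyp2b9*, a female-biased P450, rose from between 0.130 and 0.869 CPM to 3.98, 216 and 180 CPM (adjusted p = 0.0386, edgeR). *Sult1e1*, an estrogen sulfotransferase, rose from between 0.0974 and 0.249 CPM to 33.6, 44.0 and 20.8 CPM (adjusted p = 2.03e-05, edgeR), and here gSpns1-cKO 1 lay between the other gSpns1-cKO livers.

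Across the list of male-biased liver genes, 10 of 12 fell, with a median log2 fold change of -4.29. *Mup7*, a urinary protein of a multicopy family, had between 2923 and 3959 CPM in controls and no count in any gSpns1-cKO library, at least 45099-fold lower against a floor of 3 counts per library. *Hsd3b5*, a steroid dehydrogenase, and *Elovl3*, a fatty acid elongase, fell with log2 fold changes of -10.93 and -7.29 (adjusted p of 3.82e-05 and 0.00766, edgeR). *Cyp7b1* had between 370 and 418 CPM in controls and 21.8, 15.7 and 19.4 CPM in gSpns1-cKO livers 1 to 3. *Slco1a1* had between 324 and 526 CPM in controls and 4.11, 2.48 and 2.67 CPM in gSpns1-cKO livers. For these and *Mup7*, gSpns1-cKO 1 lay far below the controls, like the other gSpns1-cKO livers. *Elovl3*, *Selenbp2*, *Nudt7*, *C6* and *Mup20* went the other way, with gSpns1-cKO 1 well above the other gSpns1-cKO livers (176 CPM against 31.1 and 49.7 CPM for *Nudt7*). The male-biased genes that did not pass were *Mup20* and *C6*, and all 12 passed without gSpns1-cKO 1. Of the female-biased list, 7 of 14 genes could be tested. Of these, 4 (57.1%) rose and 1 (14.3%), *Cyp17a1*, fell, against 21.3% and 20.5% of all genes tested. Their median log2 fold change was 2.49. Besides *Cyp2b9* and *Sult1e1*, *Cyp2a4*, a P450 with a close paralog that makes its count uncertain, rose by 7.05, and *Cyp3a16* and *Acot3* did not pass. The number that rose was 1 without control 1 or gSpns1-cKO 3, 2 without control 2 or gSpns1-cKO 2, 3 without control 3 and 5 without gSpns1-cKO 1.

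Of the genes of growth hormone signalling, which sets sex-biased expression in the liver, 4 of 11 (36.4%) fell, against 20.5% of all genes tested. *Onecut1*, a hepatocyte transcription factor, and *Igfals*, which carries IGF1 in blood, had log2 fold changes of -1.44 and -1.04, and the receptor *Ghr* and *Igf1* ones of -0.88 and -0.79 (adjusted p of 0.0434, 0.000154, 0.00309 and 0.00116, edgeR). *Stat5b*, which relays the signal to the nucleus, had a log2 fold change of 0.15 (adjusted p = 0.254, edgeR), and its relative *Stat5a* one of -0.0048. Only 2 of these genes passed as lower with library size only and 1 with hepatocyte-list scaling, and 4 passed as higher with each. The part of sex-biased expression, or of any difference between mouse gSpns1-cKO 1 and the other mice, in the *Cyp4a12* values was not tested.

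**Figure D3:**
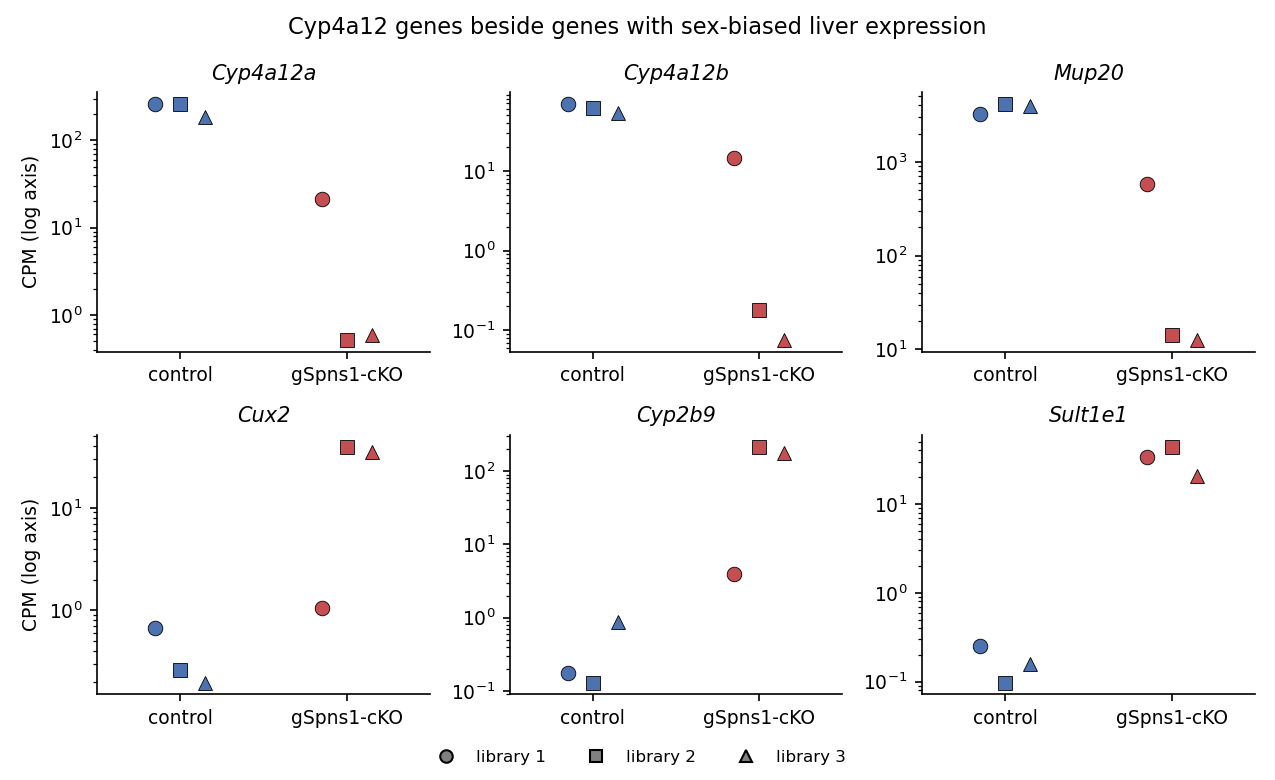
Level in CPM on a log axis (each panel with its own range) of Cyp4a12a, Cyp4a12b and 4 other genes with sex-biased liver expression, controls in blue and gSpns1-cKO in red, 1 symbol per library number. In every panel except that of Sult1e1, gSpns1-cKO 1 lies between the controls and gSpns1-cKO 2 and 3, at 21.4 CPM for Cyp4a12a and at 1.06 CPM for Cux2.

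*Cyp4a10* and *Cyp4a14* encode the classic fibrate-inducible lauric acid hydroxylases. *Cyp4a10* (chromosome 4, 115518264 to 115533649) had 137, 119 and 151 CPM in control livers and 82.2, 156 and 141 CPM in gSpns1-cKO livers. The groups overlapped, with gSpns1-cKO 1 the lowest of all 6 libraries and gSpns1-cKO 2 the highest. The log2 fold change was -0.10 (SE 0.22, adjusted p = 0.757, edgeR), and its sign turned to 0.13 without gSpns1-cKO 1 and to between 0.038 and 0.49 with library size only, upper-quartile or hepatocyte-list scaling.

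*Cyp4a14* (chromosome 4, 115486200 to 115496142) had 124, 163 and 206 CPM in control livers and 99.3, 291 and 204 CPM in gSpns1-cKO livers. Here too gSpns1-cKO 1 was the lowest and gSpns1-cKO 2 the highest library. The log2 fold change of 0.27 (SE 0.42) did not pass (adjusted p = 0.651, edgeR), and it was -0.12 without gSpns1-cKO 2. These spreads leave room for changes in either direction.

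*Cyp4a32* and *Cyp4a31* are close relatives of *Cyp4a10*. *Cyp4a32* (chromosome 4, 115600969 to 115621602) fell from 29.6, 24.4 and 30.1 CPM to 11.4, 13.9 and 9.23 CPM, a log2 fold change of -1.28 (SE 0.16, adjusted p = 0.000196, edgeR). *Cyp4a31* (chromosome 4, 115563649 to 115579015), the lowest member in control livers, had 2.13, 2.96 and 4.90 CPM in controls and 3.67, 7.12 and 6.59 CPM in gSpns1-cKO livers. Its groups overlapped and its log2 fold change of 0.80 (SE 0.34) did not pass (adjusted p = 0.0869, edgeR), although it did without control 3 (1.17, adjusted p = 0.0270) or without gSpns1-cKO 1 (1.04, adjusted p = 0.0192). Because these genes share reads, the sum of *Cyp4a10*, *Cyp4a31* and *Cyp4a32* was also fitted, and it had a log2 fold change of -0.21 (SE 0.21, adjusted p = 0.440, edgeR).

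The 6 *Cyp4a* members together had 620, 633 and 629 CPM in control livers and 232, 469 and 361 CPM in gSpns1-cKO livers. The groups did not overlap, and the sum fell by 0.83 on the log2 scale (SE 0.22, adjusted p = 0.0145, edgeR). It no longer passed when libraries were scaled by library size only (-0.38) or to the hepatocyte marker list (-0.25).

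The *Cyp4f* members fell in all gSpns1-cKO livers. *Cyp4f14* (chromosome 17, 32905071 to 32917342), which encodes the main leukotriene B4 ω-hydroxylase of mouse liver, had 302, 293 and 288 CPM in controls and 114, 49.6 and 57.6 CPM in gSpns1-cKO livers. It had the largest change among the members that passed, a log2 fold change of -2.0 (SE 0.31, adjusted p = 0.00279, edgeR), and gSpns1-cKO 1 was again the library nearest to the controls. Without that library the log2 fold change was -2.46.

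*Cyp4f13* (chromosome 17, 32924688 to 32947402) had 105, 121 and 105 CPM in controls and 47.3, 53.4 and 47.7 CPM in gSpns1-cKO livers. It fell by 1.16 on the log2 scale (SE 0.11, adjusted p = 4.5e-05, edgeR), and the gSpns1-cKO livers lay within 1.13-fold of each other. *Cyp4f15* (chromosome 17, 32685627 to 32703352) had 198, 190 and 207 CPM in controls and 117, 117 and 115 CPM in gSpns1-cKO livers. It fell by 0.77 (SE 0.11, adjusted p = 0.000363, edgeR), the smallest change that passed, and did not pass with scaling to the hepatocyte marker list (-0.17, adjusted p = 0.196). For *Cyp4f13* and *Cyp4f15*, gSpns1-cKO 1 did not stand apart.

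Summed, the 3 *Cyp4f* members had between 601 and 605 CPM in controls and 279, 220 and 220 CPM in gSpns1-cKO livers, a log2 fold change of -1.33 (SE 0.14, adjusted p = 7.8e-05, edgeR). Within each library, the log2 ratio of summed *Cyp4a* to summed *Cyp4f* counts was 0.036, 0.066 and 0.065 in controls and -0.26, 1.09 and 0.72 in gSpns1-cKO livers. The control livers thus held nearly equal counts of both subfamilies, and the gSpns1-cKO livers lay on both sides of them. The mean difference of 0.46 did not pass (two-sided exact permutation test, p = 0.4, n = 3 and 3, where the smallest possible p is 0.1), and it was 0.85 without gSpns1-cKO 1, 0.17 without gSpns1-cKO 2 and 0.36 without gSpns1-cKO 3.

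*Cyp4v3*, the mouse counterpart of human CYP4V2, which is mutated in Bietti crystalline dystrophy of the retina, had 373, 361 and 415 CPM in controls and 164, 122 and 132 CPM in gSpns1-cKO livers. The groups were well apart, and *Cyp4v3* fell by 1.46 on the log2 scale (SE 0.14, adjusted p = 5.4e-05, edgeR).

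These changes altered the make-up of the CYP4 transcripts. The members' FPKM summed to 600, 605 and 619 in control livers and to 254, 312 and 274 in gSpns1-cKO livers. Their share of all counts fell less, from between 0.137% and 0.139% to between 0.0781% and 0.0953%. The *Cyp4a12* pair made up 22.2%, 22.1% and 15.8% of this sum in controls and 5.77%, 0.0916% and 0.0986% in gSpns1-cKO livers. *Cyp4a14* made up 7.79%, 10.3% and 12.8% in controls and 14.9%, 35.1% and 28.2% in gSpns1-cKO livers, a higher share in every gSpns1-cKO library although its own level did not pass the test. The 3 *Cyp4f* members made up between 39.0% and 40.0% in controls and 44.0%, 27.7% and 31.9% in gSpns1-cKO livers. The share in gSpns1-cKO 1 was thus above the controls and the other shares were below them.

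**Figure D4:**
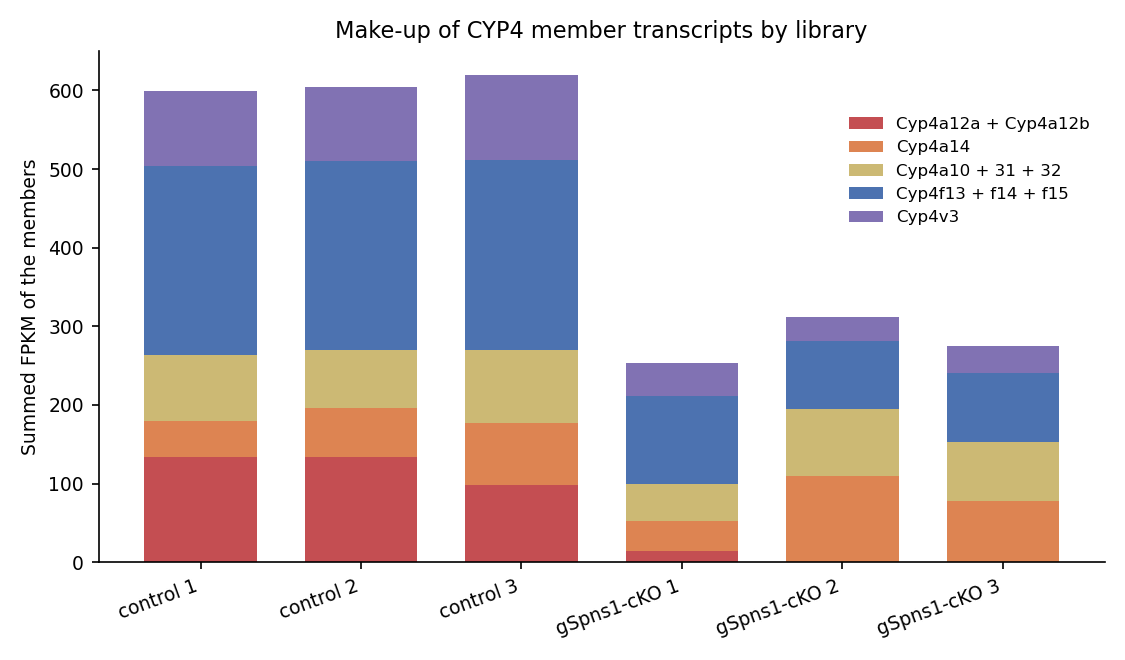
Summed FPKM of the CYP4 members in each library, stacked by group of members. The bars reach 600 to 619 in control libraries and 254 to 312 in gSpns1-cKO libraries, and the Cyp4a12 segment is not visible in gSpns1-cKO 2 and 3.

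Over the 6 libraries, the levels of *Cyp4a12a* and *Cyp4f14* ran most closely together among members of different subfamilies, with a Pearson correlation of log2(CPM + 1) of 0.995, and *Cyp4a10* ran with *Cyp4a14* at 0.816. *Cyp4a12a* and *Cyp4a14* had a correlation of -0.504. Among 8001 genes other than the 10 members with a mean of at least 10 CPM, those most like *Cyp4f14* by this measure were *Mup-ps13*, *Scp2*, *Serpina12*, *Serpina1e* and *Nat8f1*, with correlations between 0.998 and 0.999. A correlation over 0.95 was found for 756 genes (9.45%). These values describe 6 libraries that share the split between groups.

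Of 12 other CYP4 genes and pseudogenes in the table, 4 passed the filter on low counts and 4 had no count. *Cyp4f16* rose by 1.94 on the log2 scale, from between 2.65 and 3.64 CPM to between 11.5 and 12.2 CPM, and *Cyp4f18*, the leukotriene B4 hydroxylase of neutrophils, rose by 1.36 (adjusted p of 2.79e-05 and 0.0109, edgeR). *Cyp4f17* fell by 0.68 (adjusted p = 0.00377, edgeR), a call lost with library size only and with hepatocyte-list scaling, and *Cyp4b1* had a log2 fold change of 0.28 that did not pass (adjusted p = 0.0830, edgeR). The change of *Cyp4f16* and *Cyp4f18* was thus opposite in sign to that of the 3 *Cyp4f* members, all at lower levels.

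Known PPARα target genes outside the CYP4 family were examined beside the *Cyp4a* members. Of 30 tested, 24 (80%) fell, 1 (3.33%) rose and 5 did not pass, against 20.5% lower and 21.3% higher among all genes tested. Their median log2 fold change was -1.16. *Acot1*, an acyl-CoA thioesterase, *Angptl4*, a lipoprotein lipase inhibitor, and *Fabp1*, the liver fatty acid-binding protein, fell with log2 fold changes of -4.01, -2.86 and -2.60 (adjusted p of 0.000506, 0.00326 and 0.00145, edgeR). *Pdk4*, which restrains pyruvate oxidation, was the 1 that rose, by 1.11. *Acadl* and *Ehhadh*, the latter a peroxisomal bifunctional enzyme, did not pass, with log2 fold changes of -0.27 and -0.0028. With library size only 20 and with hepatocyte-list scaling 17 of them still passed as lower. So most of the listed targets fell in the same libraries in which *Cyp4a10* and *Cyp4a14* overlapped the controls. The 5 listed targets that did not pass overlapped the controls too.

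Of PPARα and its partners, 5 of 13 (38.5%) fell and 1 rose, against 20.5% lower and 21.3% higher among all genes tested. *Ppara* itself had a log2 fold change of -0.51, its dimer partner *Rxra* of -0.87 and *Rxrb* of -0.78 (adjusted p of 0.00997, 0.00147 and 0.000690, edgeR). *Creb3l3*, a liver transcription factor that acts with PPARα, fell by 1.35 and the coactivator *Ppargc1b* fell by 1.18, while the coactivator *Ppargc1a* rose by 1.30. *Hnf4a*, *Ncor1*, *Ncoa1*, *Med1*, *Nr1i3*, *Ppard* and *Pparg* did not pass, with log2 fold changes between -0.42 and 0.12. The list's median of -0.16 turned to 0.29 with library size only and to 0.42 with hepatocyte-list scaling, where 6 of its genes passed as higher with each, and the number that passed as lower went from 5 to 3 and to 1.

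Most of the enzymes that act after the CYP4 step also fell. Of 19 tested genes from the alcohol and aldehyde dehydrogenases to peroxisomal β-oxidation, 16 fell, against 20.5% of all genes tested. Their median log2 fold change was -1.19. With library size only and with hepatocyte-list scaling 11 passed as lower, and 2 passed as higher with the latter. This list shares 6 genes with the PPARα targets, which is 30% of its own genes and 20% of theirs. *Adh4*, *Acaa1b*, a peroxisomal thiolase, and *Aldh1a1* had log2 fold changes of -2.18, -2.03 and -1.90 (adjusted p of 0.0040, 0.000425 and 7.75e-05, edgeR). The most abundant genes that did not pass were *Adh1* and *Ehhadh*, and *Adh1* had between 2606 and 2948 CPM in controls and between 2197 and 3012 CPM in gSpns1-cKO livers.

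Among the genes that supply P450 enzymes with electrons and heme, of 12 tested 6 fell, against 20.5% of all genes tested. The median log2 fold change of the list was -0.51. *Cyb5b* and *Cyb5r3*, of the cytochrome b5 system, and *Cpox*, of heme synthesis, had log2 fold changes of -0.76, -0.76 and -0.67. *Por*, the reductase of all microsomal P450 enzymes, had 480, 724 and 708 CPM in controls and 254, 654 and 435 CPM in gSpns1-cKO livers (adjusted p = 0.273, edgeR), and *Cyb5a* and *Alas1* did not pass either. With library size only or hepatocyte-list scaling no gene of this list passed as lower, and 1 or 2 passed as higher. For *Por*, as for *Cyp4a10* and *Cyp4a14*, gSpns1-cKO 1 was the lowest library.

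**Figure D5:**
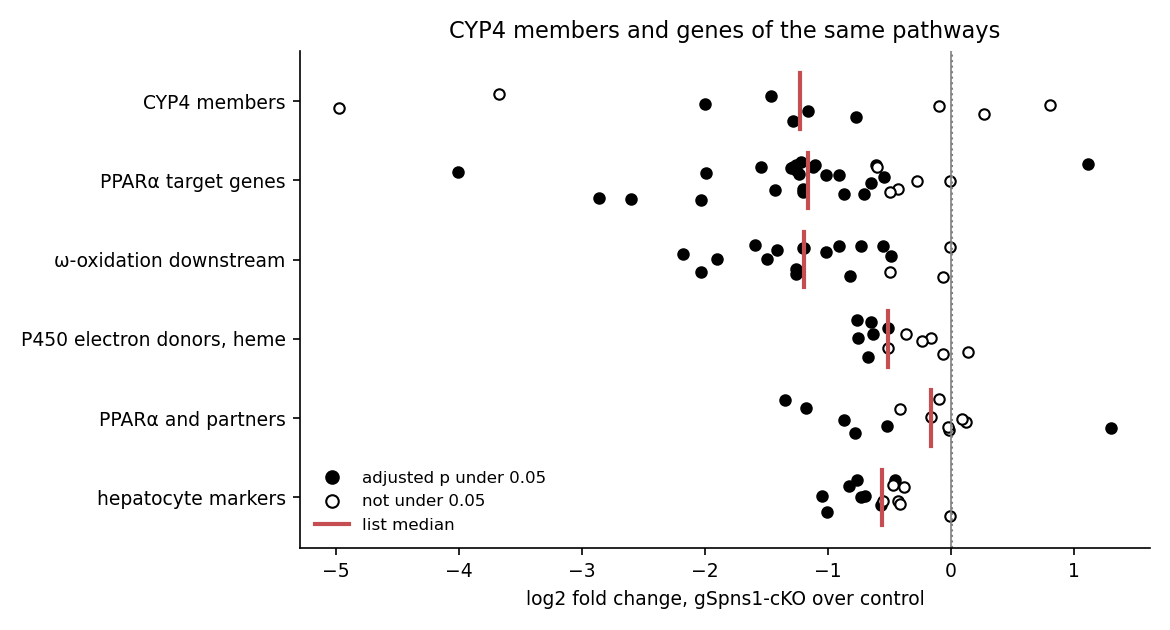
The log2 fold change, gSpns1-cKO over control, of the CYP4 members and of the tested genes of 5 further lists, 1 point per gene, filled where the edgeR adjusted p was under 0.05, with a red line at each list's median and a dotted line at the median of all genes tested. The medians are -1.22 for the members, -1.16 for PPARα targets, -1.19 for enzymes downstream of ω-hydroxylation and -0.56 for hepatocyte markers.

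On the substrate side of the *Cyp4f* members, 6 genes of leukotriene B4 and 20-HETE handling could be tested. Of these, 1 (16.7%) rose and 1 (16.7%) fell, no more than the 21.3% and 20.5% of all genes tested. *Ptgr1*, which inactivates leukotriene B4 by another route, rose by 1.24, and the receptor *Ltb4r2* fell by 1.03 (adjusted p of 0.000786 and 0.0407, edgeR). *Lta4h*, which makes leukotriene B4, and *Alox5ap* did not pass, at -0.25 and 0.77. *Ltb4r2* did not pass as lower with library size only, upper-quartile or hepatocyte-list scaling, with limma-voom, at a threshold of 0.01, or without control 1, control 2 or gSpns1-cKO 3.

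Markers of the cell types in whole liver moved between the groups in the same comparison. Of 15 listed hepatocyte markers, 14 had a row in the deposited gene table. Of these, 8 fell (median -0.56), against 20.5% of all genes tested, and 3 passed as lower with library size only. Their summed level was between 130196 and 141486 CPM in controls and between 77403 and 89722 CPM in gSpns1-cKO livers. The median over the CYP4 members, which hepatocytes express, was -1.22. Macrophage markers rose in 9 of 9 genes (median 2.04, summed level 188 to 307 CPM against 739 to 1105 CPM), cholangiocyte markers in 5 of 5 (median 2.29, 5.46 to 6.72 CPM against 23.2 to 32.1 CPM) and endothelial markers in 5 of 5 (median 1.06, 90.7 to 102 CPM against 163 to 199 CPM). Stellate cell markers rose in 4 of 6 (median 1.18, 147 to 170 CPM against 418 to 463 CPM) and leukocyte markers in 3 of 6 tested (median 0.94, 3.73 to 4.62 CPM against 7.62 to 11.3 CPM). Among all genes tested, 21.3% were called higher. The number of stellate cell markers that rose was 2 without control 3 or gSpns1-cKO 3 and 6 without gSpns1-cKO 2, and it was 6 with library size only. Each marker with a row in the deposited gene table had a count in at least 1 library, and *Ly6g* was at 0 in the gSpns1-cKO libraries.

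By position in the liver lobule, 3 of 10 pericentral genes fell (median -0.17) and 5 of 10 periportal genes fell (median -0.39), against 20.5% of all genes tested. *Cyp2e1*, a pericentral P450, fell by 0.83 and *Oat* fell by 0.86, whereas *Glul*, the enzyme of the innermost pericentral cells, had a log2 fold change of -0.16 (adjusted p = 0.547, edgeR). *Cyp2f2*, a periportal P450, fell by 1.92. With library size only, the medians of both lists turned to 0.27 and 0.056, no pericentral and 2 periportal genes passed as lower, and 1 pericentral and 3 periportal genes passed as higher. The pericentral genes that passed as lower numbered 1 without control 1, control 3 or gSpns1-cKO 3 and 2 without gSpns1-cKO 1, and the periportal ones 3 without gSpns1-cKO 3. When libraries were scaled to the hepatocyte markers, which moved the median of all genes to 0.61, *Cyp4f14*, *Cyp4v3*, *Cyp4a32* and *Cyp4f13* passed in the lower direction. The part of cell make-up in the change of the members was not tested.

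Promoters, from 250 bases before to 50 bases after the start of transcription, were held in RefSeq (GRCm38.p6) for *Cyp4a32*, *Cyp4f13*, *Cyp4f14*, *Cyp4f15* and *Cyp4v3*, in 8 entries. A direct repeat of AGGTCA with 1 base between, the element PPARα binds with RXR, was searched on both strands and found in none of the 8 and in 0.0396% of 32851 promoters. A looser form, NGGNCA and AGGNCA with 1 base between, in which 2 bases of the first copy and 1 base of the second were free, was also found in none of the 8 and in 0.798% of all promoters. The STAT element TTCNNNGAA was in 1 of the 8, that of *Cyp4f13*, and in 8.3% of all promoters. These counts say only which letters lie in these windows.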

How the data were processed

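Liver RNA-Seq libraries of 3 gSpns1-cKO and 3 control mice were grouped by the sample titles. Per the labels, reads were trimmed with fastp, aligned to mm10 with HISAT2 2.0.5 and counted per gene with featureCounts 1.5.0-p3; whether strand or multi-mapped reads were used in counting is not given in the sources used here. The authors deposited whole-number counts, not normalized, and FPKM values, which scale counts by gene length and by a factor per library other than its total count. Their table also holds the fold changes and p-values of their own comparison, which were not used.

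Counts were filtered by filterByExpr, scaled by TMM and compared with edgeR 4.0.16 in R 4.3.3 (quasi-likelihood test, robust, Benjamini-Hochberg adjustment over 15449 genes). TMM factors were 0.834 to 0.873 in control and 1.16 to 1.18 in gSpns1-cKO libraries. CPM use TMM-scaled library sizes, and 3 counts, between 0.0763 and 0.119 CPM, were taken as the smallest signal, which covers counting error only. No 2 libraries of a group agreed within sampling noise (chi-square per gene 38.8 to 114). The fit was tested on simulated data in which every gene had the same dispersion between libraries. That test does not cover genes with an outlying library, such as the *Cyp4a12* pair. Alternatives were DESeq2 1.42.0, limma-voom (limma 3.58.1), 4 other scalings, 2 filters, a threshold of 0.01, a replicate block and leaving out each library. Positions of 9 of 10 members matched GENCODE M21 (*Cyp4f14* is given as deposited).

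The members, the gene lists and the genes named (all members and other CYP4 genes, PPARα with its partners, and in other lists the 3 most changed and up to 2 abundant genes that did not pass) were chosen with earlier results of these data known, so their counts are a description. With 3 mice in each group, exact permutation cannot go below p = 0.1. A gene of the female-biased list is not reported here.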

Additional observations from a re-analysis of the deposited data

How the results depend on the processing

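The 5 members called lower kept that call with every scaling, filter and tool tried and with any 1 library left out, except *Cyp4f15* with hepatocyte-list scaling (-0.17). The number called lower was 4 there and at most 7 elsewhere, since DESeq2, limma-voom and the fit without gSpns1-cKO replicate 1 also called *Cyp4a12a*, and the last 2 *Cyp4a12b*. The number called higher was 1, always *Cyp4a31*, with library size only, hepatocyte-list scaling, DESeq2, no filter and the replicate block, and 0 to 1 when a library was left out. With library size only, *Cyp4a10* was at 0.35, the sum of *Cyp4a10*, *Cyp4a31* and *Cyp4a32* at 0.23 and all *Cyp4a* at -0.38, and with hepatocyte-list scaling these were 0.49, 0.37 and -0.25. With upper-quartile scaling *Cyp4a10* was at 0.038. The summed *Cyp4a12* pair passed with DESeq2 (-4.59) and limma-voom (-6.89), and all *Cyp4a* (-0.83) did not pass the threshold of 0.01. With a library left out, the pair ranged from -8.76 to -4.02, *Cyp4a10* from -0.28 to 0.13 and *Cyp4a14* from -0.12 to 0.59. The cause of these changes was not tested.

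The median over all genes, 0.014 on the log2 scale with TMM, was 0.46 with library size only, 0.14 with upper-quartile and 0.61 with hepatocyte-list scaling. Genes called higher and lower then numbered 7289 and 970, 4111 and 2240, and 8894 and 656, against 3286 and 3166.

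The replicate numbers did not pair the samples (correlations of same-numbered libraries' deviations 0.042, 0.032 and -0.027). With the number as a replicate block, 5 members were called lower and 1 higher, and the summed *Cyp4a12* pair was at -6.69 (adjusted p = 0.140, edgeR). At this depth the *Cyp4a12b* level in gSpns1-cKO 3 rests on 3 counts.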
